A study of Mus musculus with 13 samples.

Results

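The 10 genes described here make up the VEGF, angiopoietin and apelin axis: the ligand Vegfa and its receptors Kdr, Flt1 and Flt4, the ligands Angpt1 and Angpt2 with the receptors Tek and Tie1, and the ligand Apln with its receptor Aplnr. They were chosen by name, with earlier results of these data known, from the 49315 genes counted in each library. All 10 passed the filter on low counts that left 19360 genes for testing. Libraries came from the midbrains of 13 male mice aged 8 to 12 weeks, 1 mouse per library, all Ripk3fl/fl and, per the labels, all given 60 mg/kg tamoxifen for 5 days at least a week earlier. Mice carrying Aldh1l1Cre (Cre+), a tamoxifen-inducible recombinase driven by an astrocyte promoter that deletes Ripk3 in astrocytes, were compared with Aldh1l1Cre- littermates (Cre-). MPTP, a toxin of dopaminergic neurons, was given at 20 mg/kg once daily for 5 days, saline was given to controls, and tissue was taken 3 days after the last dose from mice perfused with PBS. The groups were Cre- Saline (n = 3), Cre- MPTP (n = 3), Cre+ Saline (n = 3) and Cre+ MPTP (n = 4).

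As background, VEGF-A drives endothelial growth and permeability through KDR (VEGFR2), while FLT1 (VEGFR1) binds the same ligand tightly and limits its supply to KDR, and FLT4 (VEGFR3) is the receptor for VEGF-C and VEGF-D. ANGPT1, made by perivascular cells, activates TEK (TIE2) and holds vessels quiescent. ANGPT2 is a context-dependent antagonist of TEK, and TIE1 is an orphan partner of that receptor. Apelin signals through APLNR, a G protein-coupled receptor of sprouting and venous endothelium. In the brain the receptors are found mainly on endothelial cells, while astrocytes are a known source of Vegfa and Angpt1.

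Tek and Apln were lower with MPTP in Cre- mice, and Tek, Apln and Kdr were higher in MPTP-treated Cre+ than Cre- mice. The Kdr difference did not pass without Cre+ MPTP replicate 4 (adjusted p = 0.0998 by edgeR). The sequences just before the start sites of these 3 genes are shown. They are the 250 bases upstream of the RefSeq start (GRCm38.p6), 5′ to 3′ on the strand of the gene: chr4:94739039-94739288 (plus strand) for Tek, chrX:48034854-48035103 (minus strand) for Apln and chr5:75978456-75978705 (minus strand) for Kdr. Capitals mark each GGAA, the core of sites for ETS factors, or its reverse complement TTCC.
Tek: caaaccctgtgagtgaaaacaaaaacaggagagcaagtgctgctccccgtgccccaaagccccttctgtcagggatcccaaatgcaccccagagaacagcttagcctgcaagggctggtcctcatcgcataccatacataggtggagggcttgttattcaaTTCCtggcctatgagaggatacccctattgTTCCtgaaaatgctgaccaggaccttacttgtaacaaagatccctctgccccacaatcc
Apln: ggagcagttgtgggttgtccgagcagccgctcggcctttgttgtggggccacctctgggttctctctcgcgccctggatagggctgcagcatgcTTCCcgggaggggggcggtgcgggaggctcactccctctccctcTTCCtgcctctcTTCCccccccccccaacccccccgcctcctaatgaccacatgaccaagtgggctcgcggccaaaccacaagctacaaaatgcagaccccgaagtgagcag
Kdr: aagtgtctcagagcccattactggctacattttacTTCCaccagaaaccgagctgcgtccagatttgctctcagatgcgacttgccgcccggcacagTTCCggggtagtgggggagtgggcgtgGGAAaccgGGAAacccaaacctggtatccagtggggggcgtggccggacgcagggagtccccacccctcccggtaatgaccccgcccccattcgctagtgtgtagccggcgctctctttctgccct
The GGAA core occurred 2 times before Tek, 3 times before Apln and 4 times before Kdr, and 93.4% of 32851 mouse promoters of this length held at least 1 match on either strand, with a median of 3. The hypoxia response core ACGTG, also searched on both strands, was in 16.6% of these promoters and in none of the 3 shown. Among the 7 members with an entry, it was found only before the second start of Vegfa. These matches describe the letters of the window and are not evidence of binding.

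In GRCm38 coordinates, as the count tables give them, the Tie receptors lie on chromosome 4, Tek (ENSMUSG00000006386) at 94739289 to 94874976 and Tie1 (ENSMUSG00000033191) at 118471191 to 118490061. The VEGF receptors Kdr (ENSMUSG00000062960) and Flt1 (ENSMUSG00000029648) lie on chromosome 5, at 75932827 to 75978458 and at 147561604 to 147726011, and Flt4 (ENSMUSG00000020357) lies on chromosome 11 at 49609263 to 49652739. The ligand genes are Vegfa (ENSMUSG00000023951, chromosome 17, 46016993 to 46032369), Angpt1 (ENSMUSG00000022309, chromosome 15, 42424727 to 42676977), Angpt2 (ENSMUSG00000031465, chromosome 8, 18690263 to 18741562) and Apln (ENSMUSG00000037010, chromosome X, 48025146 to 48034853). Aplnr (ENSMUSG00000044338) lies on chromosome 2 at 85136225 to 85139923.

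Library totals ran from 11489150 to 29397278 counts, and some libraries stood apart in depth or in marker sums. The lowest total was that of Cre- MPTP replicate 1, in which 21101 genes had a count against 25432 to 27186 elsewhere, with the highest summed endothelial marker level (665 CPM, reads scaled to the TMM-adjusted library total, against 356.6 to 467 CPM) and the lowest astrocyte marker sum (2233 CPM). Cre+ MPTP replicate 4 carried heart muscle transcripts, with 12 markers summing to 8601 CPM. This sum was 205.6 CPM in Cre+ Saline replicate 1 and 18.3 to 64.6 CPM in the remaining libraries. Ripk3 had 4 to 40 counts per library, too few to check single genotypes, and whole tissue also holds Ripk3 of other cells. Dopaminergic neuron markers, which mark midbrain, were present in every library and summed to 250.2 to 363 CPM. In bulk tissue, fewer cells of a type and less RNA per cell cannot be told apart.

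Per length of gene (RPKM, CPM per kilobase of gene), the ligands Vegfa and Apln had the highest levels of the axis in Cre- Saline midbrain. The means were 29.1 ± 3.07 RPKM for Vegfa and 17.6 ± 0.866 RPKM for Apln (SD, n = 3). Flt1 followed at 6.23 ± 0.83 RPKM, Tek at 4.66 ± 1.12 RPKM, Tie1 at 4.52 ± 0.782 RPKM and Kdr at 2.55 ± 0.166 RPKM. Angpt1 was at 1.69 ± 0.252, Angpt2 at 0.744 ± 0.099, Flt4 at 0.625 ± 0.0701 and Aplnr at 0.402 ± 0.0546 RPKM. The neighbours Flt1 and Tek, Tek and Tie1, and Angpt2 and Flt4 overlapped between libraries, whereas the other neighbours in this order did not. In Cre- MPTP the order differed for the Tie2 receptor and its ligands: Angpt1 (3.09 ± 1.73 RPKM) and Angpt2 (2.53 ± 1.34 RPKM) had higher mean levels than Tek (1.31 ± 0.514 RPKM), although the ranges of Angpt1 and Angpt2 overlapped that of Tek. Vegfa and Apln had the highest mean levels in each of the 4 groups, although in Cre- MPTP the lowest Apln library (5.82 RPKM) overlapped the highest Flt1 library (5.86 RPKM).

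**Figure D1:**
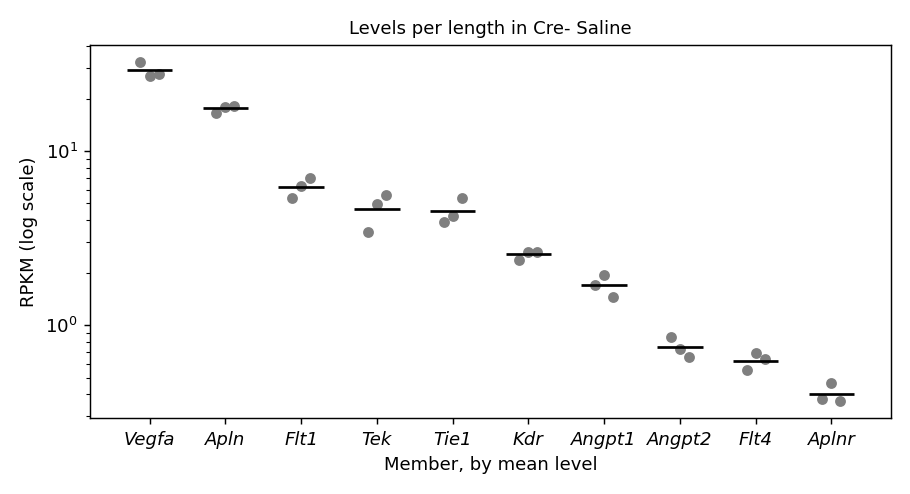
Levels of the 10 members in the 3 Cre- Saline libraries, in RPKM on a log axis, ordered by mean. Points are libraries and lines are means, from 29.1 RPKM for Vegfa to 0.402 RPKM for Aplnr.

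The first question was how the axis differed between MPTP and saline in Cre- mice, which keep astrocytic Ripk3. In Cre- mice Tek and Apln fell with MPTP, and the other 8 members did not pass the test. Tek fell by 1.81 on the log2 scale (SE 0.285, adjusted p = 0.00374 by edgeR), a level 3.50-fold lower, and Apln fell by 1.38 (SE 0.167, adjusted p = 0.00115), 2.60-fold lower. Of all genes tested, 3.18% were called in this comparison in either direction and 0.956% were called lower. CPM did not overlap between the groups for 6 of 10 members, against 15.1% of all genes. The median log2 fold change was -0.40 over the members and 0.03 over all genes. In the 2-group edgeR fit, which estimates the spread from 6 libraries, neither Tek (adjusted p = 0.13) nor Apln (adjusted p = 0.0691) was called. Leaving out any 1 library kept both calls.

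**Figure D2:**
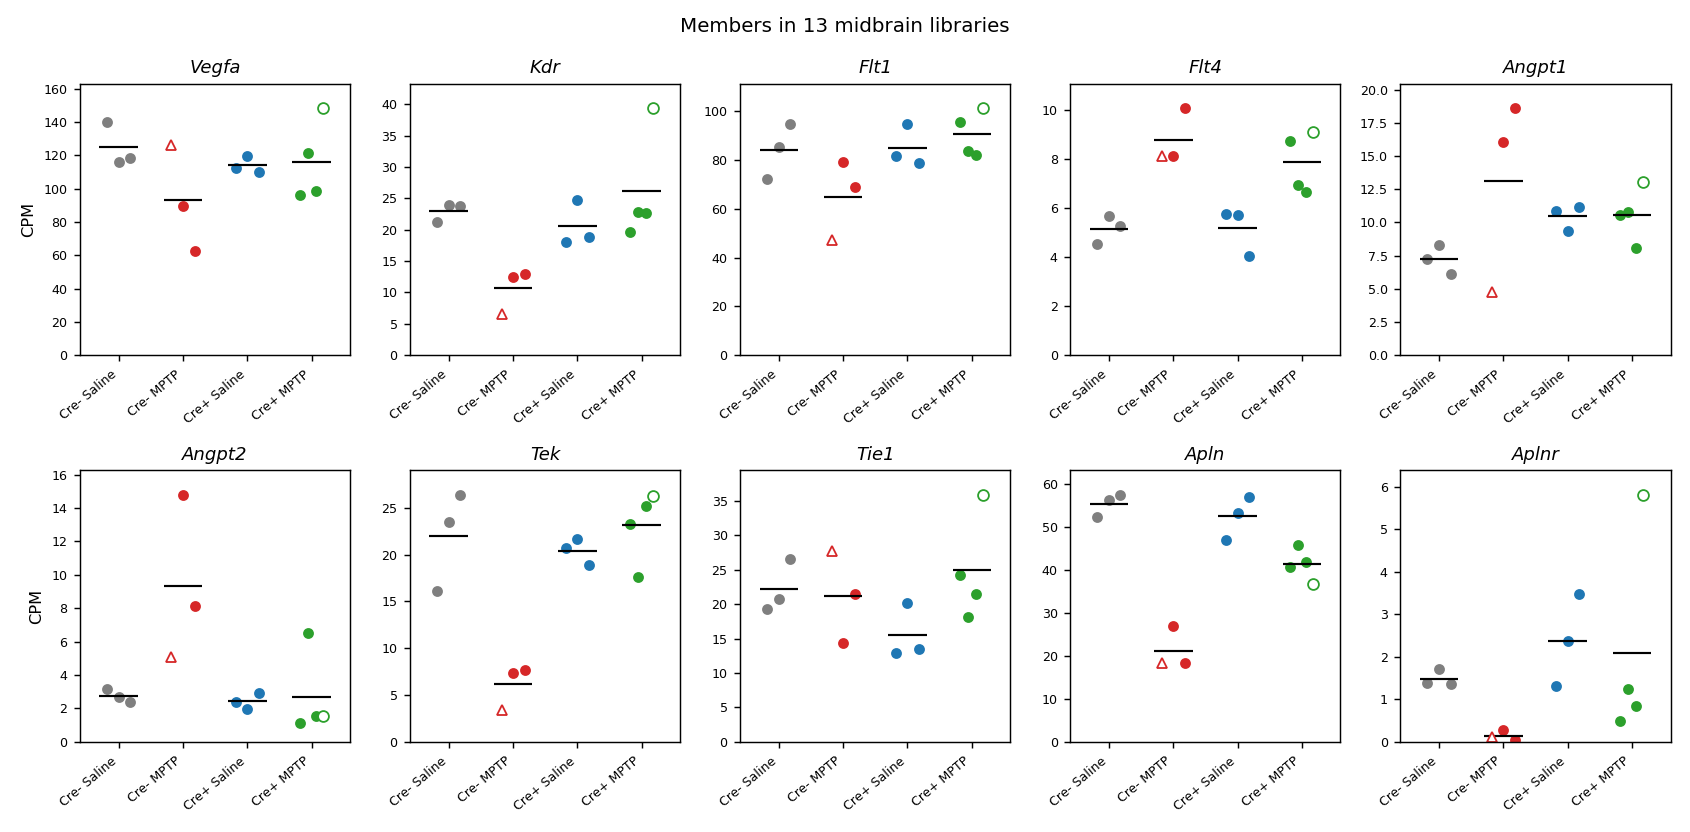
CPM of the 10 members in each of 13 libraries by group, with 1 panel per gene, linear axes from 0 and lines at the group means. The open triangle is Cre- MPTP replicate 1 and the open circle is Cre+ MPTP replicate 4; Tek and Apln lie lower in all 3 Cre- MPTP libraries (3.36 to 7.72 CPM and 18.3 to 26.9 CPM) than in any other library.

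Among the Tie receptors, Tek measured 16.1, 23.4 and 26.4 CPM in the Cre- Saline libraries and 3.36, 7.37 and 7.72 CPM in Cre- MPTP. It measured 20.7, 21.6 and 18.8 CPM in Cre+ Saline and 23.3, 17.6, 25.2 and 26.3 CPM in Cre+ MPTP. Every Cre- MPTP library lay below the other 10, and the other 3 groups overlapped. Tie1, the partner receptor, gave 19.3, 20.7 and 26.6 CPM in Cre- Saline and 27.7, 14.3 and 21.5 CPM in Cre- MPTP, so the groups overlapped and the fitted log2 difference was -0.08 (95% interval -0.71 to 0.56). In Cre+ mice Tie1 ran from 12.9 to 20.2 CPM with saline and from 18.2 to 35.9 CPM with MPTP.

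None of the 3 VEGF receptors passed the test in Cre- mice. Kdr, the main signalling receptor, gave 21.3, 23.9 and 23.8 CPM in Cre- Saline, 6.50, 12.4 and 13.01 CPM in Cre- MPTP, 18.1, 24.7 and 18.8 CPM in Cre+ Saline, and 19.7, 22.9, 22.6 and 39.3 CPM in Cre+ MPTP. The Cre- MPTP libraries were the lowest 3 of 13, and the highest value was that of the library with heart muscle transcripts, whose part in it was not tested. The log2 difference of Kdr between MPTP and saline in Cre- mice was -1.10 (SE 0.291, adjusted p = 0.0697 by edgeR), just outside the threshold. It passed in 2 of 13 fits with 1 library left out, where the adjusted p reached 0.22. These were without Cre- MPTP replicate 1 (-0.85, adjusted p = 0.0457) and without Cre+ MPTP replicate 4 (-1.10, adjusted p = 0.0345). The fit without Cre- MPTP replicate 1 called 9.38% of all genes, against 3.18% with all libraries. Flt1, the decoy-like receptor, gave 72.4, 85.6 and 94.6 CPM with saline and 47.1, 79.2 and 68.8 CPM with MPTP in Cre- mice, and these overlapped (log2 difference -0.37, 95% interval -0.77 to 0.03). Flt4, the receptor of VEGF-C and VEGF-D, measured 4.52, 5.66 and 5.26 CPM with saline and 8.13, 8.12 and 10.1 CPM with MPTP, without overlap. Its log2 difference of 0.77 (SE 0.209, adjusted p = 0.0768) did not pass. Of the 13 fits with 1 library left out, only that without Cre- MPTP replicate 1 passed (0.83, adjusted p = 0.0219). The adjusted p of Flt4 reached 0.265 in the others. Lymphatic endothelium is a second place where Flt4 is found. The 5 genes listed as its markers (Prox1, Lyve1, Pdpn, Ccl21a and Reln) summed to 98.8 to 127.5 CPM with saline and 66.7 to 128.5 CPM with MPTP. Of these genes 1 was at 0, and of the 4 tested 1 was higher and 3 lower with MPTP. Neither the cells that these reads came from nor their part in the Flt4 values was tested.

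Among the ligands, Vegfa gave 140.0, 116.1 and 118.3 CPM in Cre- Saline and 126.5, 89.8 and 62.6 CPM in Cre- MPTP. The groups overlapped only through Cre- MPTP replicate 1, and the log2 difference was -0.43 (adjusted p = 0.394), or -0.71 (adjusted p = 0.0291) without that library. The latter fit called 9.38% of all genes. It was the only pass of Vegfa in 13 fits with 1 library left out, where the adjusted p reached 0.634. Angpt1 gave 7.22, 8.28 and 6.13 CPM with saline and 4.77, 16.0 and 18.6 CPM with MPTP. Here too the first Cre- MPTP library lay apart from the others, below every saline library, and the log2 difference was 0.88 (adjusted p = 0.297), or 1.27 (adjusted p = 0.00083) without it. Angpt1 passed in only 1 of the 13 such fits, and its adjusted p reached 0.508. Angpt2, the antagonist, gave 3.13, 2.69 and 2.41 CPM with saline and 5.09, 14.8 and 8.12 CPM with MPTP. All 3 MPTP libraries lay above saline, far apart from each other, and the log2 difference of 1.77 (SE 0.587, adjusted p = 0.169) did not pass. It passed in 2 of the 13 such fits, where the adjusted p reached 0.418. These were without Cre- MPTP replicate 1 (2.06, adjusted p = 0.0337) and without Cre+ MPTP replicate 2 (1.77, adjusted p = 0.0169). Genes overlap both angiopoietins on the opposite strand (Gm17473 over Angpt1, Mcph1 over Angpt2), and whether the counting used strand is not given in the sources used here, so reads of these partners cannot be told apart from theirs.

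Apelin itself gave 52.3, 56.4 and 57.5 CPM in Cre- Saline, 18.3, 26.9 and 18.4 CPM in Cre- MPTP, 47.1, 53.4 and 57.1 CPM in Cre+ Saline and 40.7, 45.9, 41.8 and 36.9 CPM in Cre+ MPTP. The Cre- MPTP libraries were the lowest, and the Cre+ MPTP libraries lay between them and the saline libraries with no overlap on either side. Aplnr, the receptor, had few reads: 35, 44 and 37 counts in Cre- Saline and 1, 7 and 1 counts in Cre- MPTP, or 1.35 to 1.72 CPM against 0.033 to 0.277 CPM. It had 33, 58 and 91 counts in Cre+ Saline and 13, 22, 19 and 152 counts in Cre+ MPTP, the last in the library with heart muscle transcripts. The fitted log2 difference of Aplnr in Cre- mice was -3.35 (95% interval -5.55 to -1.15, adjusted p = 0.121), which did not pass. Without Cre+ MPTP replicate 4 it was the same size and passed (-3.35, adjusted p = 0.0149). That was the only pass in 13 fits with 1 library left out, where the adjusted p reached 0.285.

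Levels of Tek and Kdr were also set against the endothelial cells in each library. The sum of 12 endothelial markers, none of them a member, ran from 415.1 to 430 CPM in Cre- Saline and from 365.5 to 665 CPM in Cre- MPTP, and the log2 difference of 0.14 did not pass a two-sided exact permutation test (p = 0.9; the smallest p that 3 against 3 can give is 0.1). Of these markers 9 were higher and 3 lower, and Itm2a alone was called, at 13.01 against 71.1 CPM (log2 fold change -2.43, adjusted p = 0.000966). Without Cre- MPTP replicate 1, 2 markers were called higher and 2 lower (median log2 fold change 0.11), when 9.38% of all genes were called. None of the 12 was at 0 in any group. The measures of this list differed in sign: the median of the 12 fitted log2 fold changes was 0.53, the group difference in each library's median marker level (log2 CPM) was -0.19, and the sum without Cre- MPTP replicate 1 was -0.12. As a percentage of this sum, Tek was at 3.75, 5.64 and 6.20 in Cre- Saline and at 0.505, 2.02 and 1.86 in Cre- MPTP, and at 4.56 to 5.69 in the 7 Cre+ libraries. Kdr was at 4.95 to 5.76% in Cre- Saline, 0.978 to 3.39% in Cre- MPTP and 4.33 to 8.44% in the Cre+ libraries. On this scale too the 3 Cre- MPTP libraries were the lowest for both receptors, while Tie1 overlapped at 3.92 to 5.16% in Cre- MPTP and 3.50 to 7.70% elsewhere. Pericyte and smooth muscle markers, which mark the perivascular cells beside the endothelium, were lower as a sum in Cre- MPTP (215.8 to 265.7 CPM) than in Cre- Saline (329.6 to 385.6 CPM), with 8 of 10 lower and Vtn called (-1.03, adjusted p = 0.0108). Their part in the Tek result was not tested.

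The genes with the profile most like Apln over the 13 libraries were Stmn4, Lpar1 and Gpr37 (Pearson r of log2 CPM 0.981, 0.98 and 0.974), so the markers of oligodendrocytes, where Lpar1 and Gpr37 are known to be expressed, were set beside it after these values were seen. The 6 markers summed to 12489 to 17152 CPM in Cre- Saline and 9167 to 11783 CPM in Cre- MPTP, and 6 of 6 were lower, with Mog (-1.72, adjusted p = 0.0291) and Cnp (-0.94, adjusted p = 0.00829) called. Per 10000 CPM of this sum, Apln was at 41.9, 34.6 and 33.5 in Cre- Saline, 20.0, 22.9 and 20.1 in Cre- MPTP, 31.2 to 35.4 in Cre+ Saline and 31.8 to 37.6 in Cre+ MPTP. The Cre- MPTP libraries were again the lowest 3, whereas the Cre+ MPTP libraries no longer lay below the Cre+ Saline libraries. This holds for the sum and not for each marker. The 6 fitted log2 fold changes in Cre- mice had a median of -0.73, and Mog (-1.72) fell more than Apln (-1.38), Cnp (-0.94) less.

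**Figure D3:**
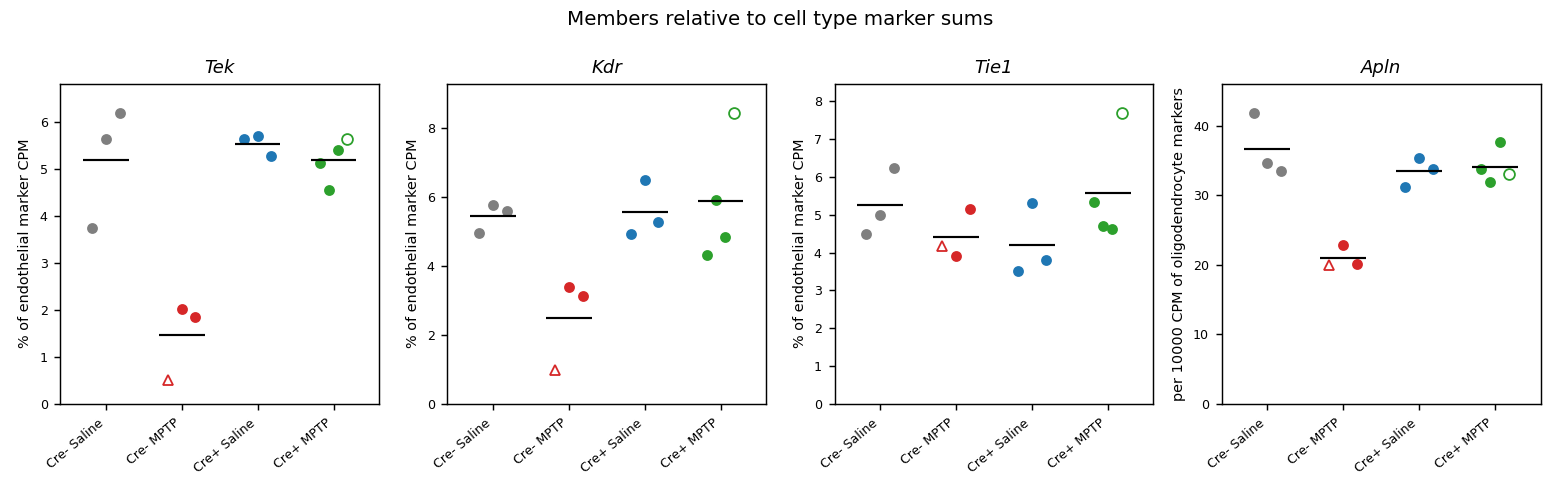
Tek, Kdr and Tie1 as a percentage of the summed CPM of 12 endothelial markers, and Apln per 10000 CPM of 6 oligodendrocyte markers, in each library, with lines at the group means. Open triangle, Cre- MPTP replicate 1; open circle, Cre+ MPTP replicate 4. Cre- MPTP libraries are lowest for Tek (0.505 to 2.02%), Kdr and Apln, and overlap the rest for Tie1.

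The next question was how the axis differed between MPTP and saline in Cre+ mice, in which the design removes Ripk3 from astrocytes. In Cre+ mice 0 of 10 members passed the test, as did 0 of 19360 genes (0%), with edgeR; 3 members and 672 genes had an unadjusted p under 0.05. Limma voom with sample quality weights called 1 member and 1.52% of all genes, and DESeq2 on these 2 groups 1 member and 1.77%. CPM did not overlap for 2 members, Flt4 and Apln, against 9.66% of all genes. Flt4 gave 5.76, 5.74 and 4.04 CPM with saline and 8.72, 6.94, 6.65 and 9.12 CPM with MPTP (log2 difference 0.60, 95% interval 0.18 to 1.03, adjusted p = 1). Its values with MPTP were thus above saline in both genotypes. The log2 difference of Apln was -0.35 (95% interval -0.68 to -0.02) and that of Tie1 was 0.69 (95% interval 0.08 to 1.29), or 0.46 without Cre+ MPTP replicate 4. Tek differed by 0.18 (95% interval -0.37 to 0.74), Kdr by 0.35 (-0.23 to 0.93), and Kdr by 0.08 without replicate 4. Aplnr differed by -0.18, or by -1.50 without replicate 4, when the other 3 libraries (0.48 to 1.23 CPM) all lay below Cre+ Saline (1.30 to 3.46 CPM). Angpt2 overlapped, at 1.95 to 2.93 CPM with saline and 1.15, 6.55, 1.55 and 1.56 CPM with MPTP, where replicate 2 was high. Angpt1, Vegfa and Flt1 differed by 0.02, 0.03 and 0.09 on the log2 scale, and the sign turned for Vegfa (-0.12) and Angpt1 (-0.10) without replicate 4.

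The MPTP groups of both genotypes were then compared. Kdr, Tek and Apln had higher levels in the Cre+ mice, 3 of 10 members, against 1.54% of all genes called in either direction and 0.517% called higher. Tek was 3.69-fold higher (log2 fold change 1.88, SE 0.275, adjusted p = 0.00907), Kdr 2.43-fold (1.28, SE 0.279, adjusted p = 0.0421) and Apln 1.94-fold (0.96, SE 0.157, adjusted p = 0.0133). These comparisons use the same Cre- MPTP libraries as the comparison with saline above. Of the other members, Aplnr differed by 3.85 (95% interval 1.72 to 5.98, adjusted p = 0.0878) and Angpt2 by -1.82 (-2.99 to -0.65, adjusted p = 0.141), Flt1 by 0.48 (0.10 to 0.86, adjusted p = 0.201), and Vegfa, Flt4, Angpt1 and Tie1 by -0.33 to 0.32. The difference of Aplnr was 2.53 (adjusted p = 0.137) without Cre+ MPTP replicate 4 and passed without Cre- MPTP replicate 2 (5.18, adjusted p = 0.0413). That of Angpt2 passed without Cre+ MPTP replicate 2 (-2.72, adjusted p = 0.00387) or Cre- MPTP replicate 1 (-2.12, adjusted p = 0.0405), and was -1.63 (adjusted p = 0.323) without Cre+ MPTP replicate 4. CPM did not overlap for Kdr, Flt1, Tek, Apln and Aplnr, 5 of 10 members against 11.3% of all genes. Their median log2 difference over the 10 members was 0.40, against 0.03 over all genes.

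The Tek call held when any 1 library was left out (1.61 to 2.07), including Cre+ MPTP replicate 4 (1.81, adjusted p = 0.0358). Apln held without replicate 4 (1.01, adjusted p = 0.0361) but not without Cre+ MPTP replicate 1 (0.97, adjusted p = 0.0548) or replicate 3 (adjusted p = 0.0529). Kdr did not pass without replicate 4 (1.01, adjusted p = 0.0998) and was called in 3 of the 13 fits that leave out a library. With the 2 groups fitted alone, edgeR called 0 members and 0 genes, and DESeq2 called 4 members and 2.24% of all genes. The sum of endothelial markers was 386.5 to 467 CPM in Cre+ MPTP, with a log2 difference of -0.07 from Cre- MPTP (two-sided exact permutation test, p = 0.857; the smallest p for 4 against 3 is 0.029), while each library's median marker level differed by 0.44. Pericyte and smooth muscle markers summed to 301 to 404.7 CPM in Cre+ MPTP and 215.8 to 265.7 CPM in Cre- MPTP, without overlap, with 7 of 10 higher and 0 called. Their part in the Tek and Kdr differences was not tested.

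**Figure D4:**
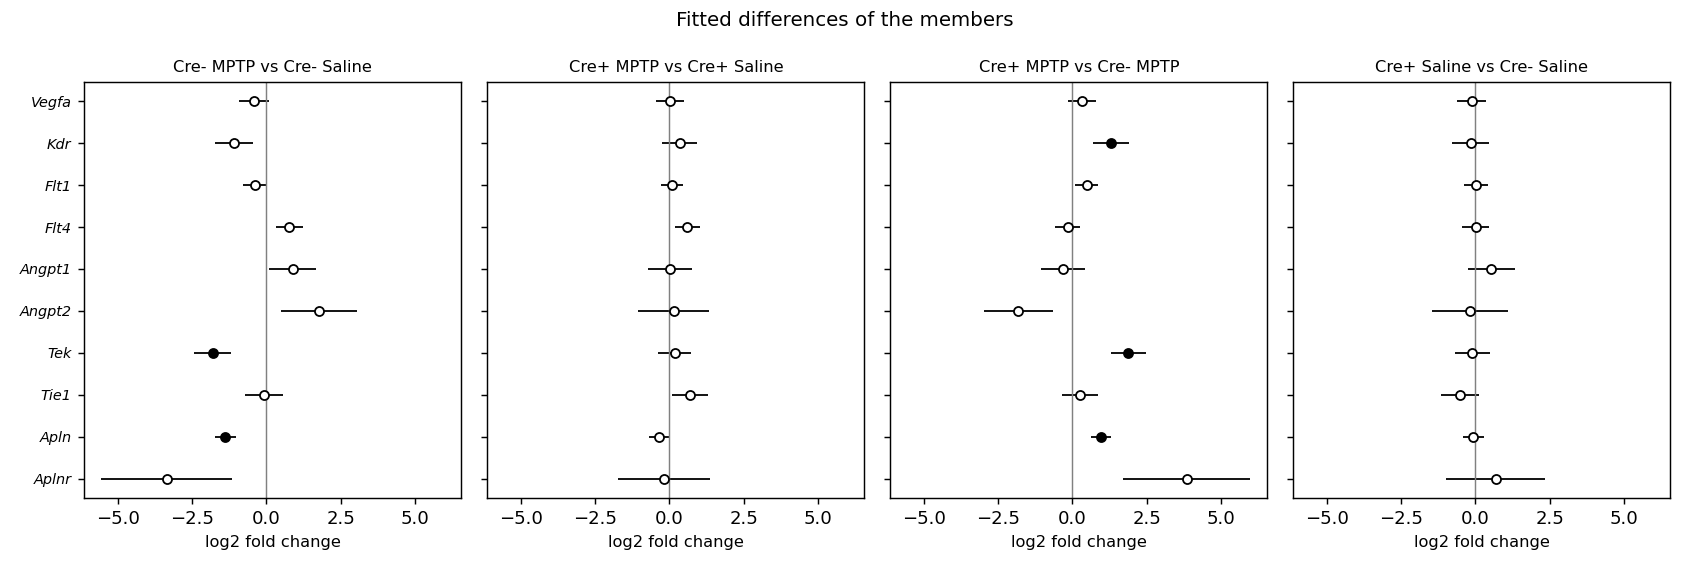
Log2 fold changes of the 10 members in 4 comparisons, with 95% intervals from the fit over all 13 libraries. Filled points passed an adjusted p of 0.05: Tek and Apln in the Cre- comparison with saline, and Kdr, Tek and Apln between the MPTP groups.

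Whether the difference between MPTP and saline itself differed between genotypes was tested by the interaction term, which called 0 of 10 members and 2 of all genes (0.0103%). The term was 1.99 for Tek (SE 0.383, adjusted p = 0.142), 1.03 for Apln (SE 0.225, adjusted p = 0.164) and 1.45 for Kdr (SE 0.396, adjusted p = 0.313), and 4 members and 1116 of all genes had an unadjusted p under 0.05. Without Cre- MPTP replicate 1 the terms of Tek (1.72, adjusted p = 0.015), Apln (0.94, adjusted p = 0.0323) and Angpt1 (-1.25, adjusted p = 0.0323) passed, as did 1.03% of all genes, and DESeq2 over all libraries called 3 members and 1.19% of all genes. Without Cre+ MPTP replicate 4 the term called 0 members and 0 of 19196 genes.

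With saline, no difference between the genotypes was called. None of the 10 members and none of 19360 genes (0%) passed, with 0 members and 176 genes at an unadjusted p under 0.05, and DESeq2 over all libraries and limma voom called 0 members. Angpt1 alone did not overlap, at 7.22, 8.28 and 6.13 CPM in Cre- and 10.8, 9.36 and 11.2 CPM in Cre+ (log2 difference 0.54, 95% interval -0.26 to 1.33), against 11.6% of all genes. The intervals of Tek (-0.70 to 0.49), Kdr (-0.79 to 0.45) and Apln (-0.43 to 0.28) held 0 and stayed under a log2 difference of 1 on either side.

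Of 60 pathway genes tested around the axis, 6 were called in Cre- MPTP against Cre- Saline (10%, against 3.18% of all genes), 3 in each direction. Among ligands, co-receptors and modulators, 12 of 14 were tested in Cre- MPTP against Cre- Saline, and 1 rose and 1 fell (median log2 fold change -0.11). Angptl4, a secreted inhibitor of lipoprotein lipase, rose (30.5 against 2.87 CPM, log2 fold change 3.40, adjusted p = 0.00252). Ptprb, the endothelial phosphatase that dephosphorylates TEK, fell (15.6 against 58.2 CPM, -1.88, adjusted p = 0.0108) but did not pass without Cre- Saline replicate 3 (adjusted p = 0.0604). Vegfd, a ligand of FLT4, was at -1.15 (adjusted p = 0.318; -2.25 to -0.69 with 1 library left out, called in 1 of 13) and Pgf, a ligand of FLT1, at 0.46 (adjusted p = 0.328). Between the MPTP groups Ptprb was higher in Cre+ (1.85, adjusted p = 0.0217) and Angptl4 lower (-2.26, adjusted p = 0.0216); neither passed without Cre+ MPTP replicate 1, 3 or 4.

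Of 15 tested Notch and tip cell genes, 1 rose and 1 fell in the Cre- comparison (median 0.44, or -0.20 without Cre- MPTP replicate 1). Plaur, the urokinase receptor, rose (17.2 against 0.529 CPM, 5.01, adjusted p = 0.00116), and Unc5b, a netrin receptor, fell (39.5 against 96.6 CPM, -1.30, adjusted p = 0.0273). Unc5b did not pass without any 1 of Cre- MPTP replicates 2 or 3 or Cre- Saline replicates 2 or 3. Notch4 was at 1.73 (adjusted p = 0.0852), ran from 0.62 to 2.08 with 1 library left out and passed in 3 of 13 such fits, each without a Cre- MPTP library. Cxcr4 was at -1.36 (adjusted p = 0.222). Of 19 hypoxia response genes 1 rose and 1 fell: Hif3a, a HIF alpha subunit, was at 3.604 (35.8 against 2.93 CPM, adjusted p = 0.000356) and Ndrg1 at -1.16 (96.5 against 215.9 CPM, adjusted p = 0.00295). Slc2a1, the glucose transporter of the blood-brain barrier, was at 0.78 (adjusted p = 0.0591; 0.44 to 0.92 with 1 library left out, called in 3 of 13) and Adm, the adrenomedullin precursor, at 1.03 (adjusted p = 0.126). Hif1a and Epas1, the main HIF alpha subunits, were at 0.12 and 0.09 and were named after their values were seen. Of 14 endothelial transcription factors 0 passed with edgeR (median 0.42, or 0.13 without Cre- MPTP replicate 1). An unadjusted p under 0.05 was seen for 4 of 14, against 2897 of all 19360 genes. The 4 were Gata2 (0.96), Foxc1 (1.79), Klf2 (1.76) and Mef2c (-1.27).

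Without Cre- MPTP replicate 1, when 9.38% of all genes were called, the ligand list had 3 genes called higher and 3 lower, the Notch list 2 and 1, the hypoxia list 4 and 2, and the transcription factors 1 and 1. In Cre+ mice 0 genes of these 4 lists passed with MPTP, as did 0% of all genes. The differences there were 1.69 for Angptl4, 0.99 for Plaur, 1.25 for Hif3a, -0.03 for Ptprb, and -0.40 for Unc5b on the log2 scale. Between the MPTP groups 1 gene was higher and 1 lower in the ligand list, 0 and 1 in the Notch list (Plaur, -3.11, adjusted p = 0.0121), 1 and 1 in the hypoxia list (Ndrg1, 0.78, adjusted p = 0.0384, and Hif3a, -1.80, adjusted p = 0.0115) and 0 and 0 among the transcription factors, 5 of 60 genes in all (8.33%, against 1.54% of all genes). Of these calls, Ndrg1 held in 3 of 13 fits with 1 library left out, Hif3a was lost without Cre+ MPTP replicate 3, and Plaur without replicate 1 or 3. Without Cre+ MPTP replicate 4 the calls were 0 and 0 in the ligand list, 0 and 1 in the Notch list, 0 and 1 in the hypoxia list and 0 and 0 among the transcription factors. That fit called 0.563% of all genes.

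**Figure D5:**
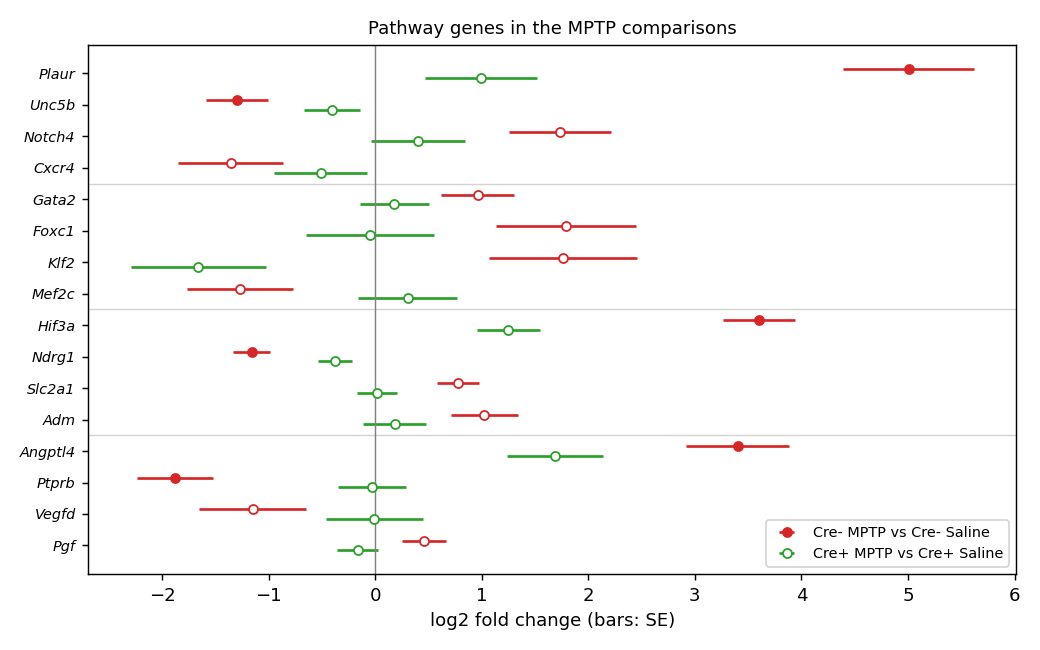
Log2 fold changes with SE for the 4 genes of each pathway list with the smallest p in Cre- MPTP against Cre- Saline, beside the same genes in Cre+ mice. Grey lines part the lists, from the top Notch and tip cell genes, endothelial transcription factors, hypoxia response genes, and ligands with co-receptors and modulators; filled points passed an adjusted p of 0.05, 6 in Cre- and 0 in Cre+ mice.

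Across the 13 libraries, Tek was most like Ptprb (Pearson r of log2 CPM 0.986), Slco1c1 (0.976) and Plxnb3 (0.9746), and Kdr was most like Myct1 (0.959), Cav1 (0.955) and Mill2 (0.949). Flt1 was most like Pitpnc1 (0.968), 2700029L08Rik (0.957) and 5830417I10Rik (0.951), and Flt4 most like Il2rg (0.95), Cdc14b (0.929) and Lyn (0.908). Angpt1 was most like Spidr (0.958), Rcan2 (0.945) and Galnt1 (0.944), and Angpt2 most like Pdpn (0.936), Ada (0.936) and Hpgd (0.935). Vegfa was most like Ltbp4 (0.909), Gm10478 (0.873) and Thbd (0.873), Tie1 most like Parp1 (0.856), Best3 (0.835) and Gm15587 (0.83), and Aplnr most like Cryab (0.941), Grb14 (0.921) and Tmem204 (0.911). Between members, Kdr and Tek were most alike (0.921, and 0.955 without Cre+ MPTP replicate 4), and Flt4 and Apln were most opposed over all 13 (-0.78). Without Cre+ MPTP replicate 4 the most opposed pair was Flt4 and Aplnr (-0.882). These values describe libraries that share groups and depth, and the likeness of Tie1 to Parp1 was 0.776 without Cre+ MPTP replicate 4.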

How the data were processed

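Midbrain total RNA of 13 mice was sequenced (TruSeq Stranded Total RNA kit). The authors trimmed reads with Trimmomatic 0.36, aligned them to GRCm38 with STAR 2.5.2b and counted them per gene with featureCounts of Subread 1.5.2. The deposited values are raw whole-number counts per gene for 49315 genes, with gene lengths. Symbols came from the mouse GENCODE M21 annotation, and 345 gene IDs had none. Totals of 11489150 to 29397278 counts limit the precision for genes with few reads, such as Aplnr.

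Counts were tested by the quasi-likelihood method of edgeR 4.0.16 in R 4.3.3, with TMM scaling and a model of the 4 groups across the 13 libraries. A gene entered if 3 or more libraries held 10 or more of its reads. Benjamini-Hochberg adjustment covered all 19360 genes, and an adjusted p under 0.05 was called. The SE is the absolute log2 fold change over the square root of F, and intervals use 95% limits of the t distribution. CPM and RPKM use the TMM-scaled totals. Endothelial marker sums were compared by exact permutation over samples. The fitting code was run on simulated counts with known changes. Simulated libraries of a group shared the same expected gene proportions, so this says nothing of the libraries that stood apart in marker sums. The members, lists and alternatives were chosen with earlier results of these data known. Named genes are the members, up to 4 genes per pathway list with the smallest p in Cre- mice, and 3 genes per member by Pearson r. Alternatives were DESeq2 1.42.0, limma 3.58.1 voom with sample quality weights, other scaling, no filter, 2-group fits, a replicate block and each library left out; 1 that leaves out Cre- MPTP replicate 1 with Cre+ MPTP replicate 4 was chosen after seeing the data. Promoter sequences are RefSeq's on GRCm38.p6, found for 7 of 10 members. Each library is a distinct mouse.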

Additional observations from a re-analysis of the deposited data

Results flagged for a closer look

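In Cre+ MPTP, the group of 4, a library lay far from the other 3 in 5 of 12 measures tested. Chance flags about 1 in 20 such groups of values, but the measures share libraries and were chosen with earlier results known. Kdr was at 39.3 CPM in Cre+ MPTP replicate 4, against 19.7 to 22.9 CPM in the others. Aplnr was at 5.80 CPM in the same library, against 0.48 to 1.23 CPM. The heart muscle marker sum was 8601 CPM there, against 32.3 to 64.6 CPM, and its part in the Kdr and Aplnr values was not tested. Angpt2 was at 6.55 CPM in Cre+ MPTP replicate 2, against 1.15 to 1.56 CPM. The endothelial marker sum was lowest in that library, at 386.5 CPM against 455.1 to 467 CPM.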

How the results depend on the processing

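In Cre- MPTP against Cre- Saline, where 2 members were called, DESeq2 over all libraries called 6 (and 6.03% of all genes), limma voom 8 (13.6%), DESeq2 on the 2 groups 5 (3.15%), edgeR on the 2 groups 0 (0.6%), and leaving out Cre- MPTP replicate 1 with Cre+ MPTP replicate 4 gave 8 (10%); leaving out 1 library gave 2 to 7, with 7 (9.38%) in the absence of Cre- MPTP replicate 1 and 4 (2.89%) in that of Cre+ MPTP replicate 4. In Cre+ MPTP against Cre- MPTP, 3 became 5 with DESeq2 (4.44%), 6 with voom (6.32%), 0 with edgeR on the 2 groups (0%), and 1 to 5 with 1 library left out, the 1 on removing Cre+ MPTP replicate 1 (0.218%) or 3 (0.212%) and the 5 on removing Cre- MPTP replicate 1 (3.18%). In Cre+ mice voom and 2-group DESeq2 each called 1 (1.52% and 1.77%) where 0 had been called. The interaction gave 3 with DESeq2 (1.19%), 5 with voom (3.56%), 4 without both libraries (1.15%) and 0 to 3 with 1 left out. The cause was not tested.

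The replicate block gave 4 members called in the Cre- comparison (2.21% of all genes) and 0 between the MPTP groups (0%). Deviations of same-numbered samples correlated at -0.179 to 0.184. Differently numbered samples were not compared, so these values cannot show whether replicate numbers pair the samples. With the replicate block the Cre+ difference was -0.11 for Vegfa and -0.10 for Angpt1.

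Signs turned only for differences that were small in the fit of all 13 libraries. Some values in the alternatives were not small, such as -0.77 for Angpt2 in Cre+ mice without Cre+ MPTP replicate 2. In Cre+ mice, voom gave Vegfa -0.076, Angpt1 -0.039 and Angpt2 -0.58, and leaving out both libraries gave Vegfa -0.11 and Angpt1 -0.093. Over libraries left out singly, Vegfa ran from -0.12 to 0.10, Angpt1 from -0.10 to 0.13, Angpt2 from -0.77 to 0.39 and Aplnr from -1.50 to 0.19. Tie1 in Cre- mice ran from -0.31 to 0.13 and Angpt1 between the MPTP groups from -0.71 to 0.00393. Between saline groups voom gave Flt1 -0.029 and Flt4 -0.15, and single removals gave Flt1 -0.082 to 0.12, Flt4 -0.077 to 0.16, Tek -0.29 to 0.052 and Apln -0.14 to 0.00553. The endothelial difference was -0.19 in Cre- mice and 0.44 between MPTP groups as the median of the markers, and ran from -0.12 to 0.31 and from -0.25 to 0.18 with 1 library left out. With few counts, Aplnr is the least precise member.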
